A study of Mus musculus with 15 samples.

Results

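The 29 genes described here make the proteins that copy DNA in S phase: the helicase and its loading factors, the polymerase and clamp, the enzymes that supply nucleotides, a pair of repair enzymes, the factors that rebuild chromatin and regulators of the G1 to S step. They were taken by symbol from the 27179 genes of the count table, and all 29 were found. RNA sequencing was done on sorted mouse intestinal epithelial cells, with CD45 and CD31 positive cells excluded and EpCam positive cells kept. All mice carried the Lrig1-eGFP-IRES-CreERT2 allele, which puts a green fluorescent protein under control of the Lrig1 locus, together with APCmin, a truncating mutation of the tumor suppressor Apc that gives intestinal tumors. The normal epithelium therefore carried both alleles too. Cells with high and low reporter signal were sorted from normal colonic epithelium (4 libraries each) and from colonic tumors dissected out and minced (3 usable libraries each). Lrig1, a transmembrane inhibitor of ErbB receptors, marks stem and progenitor cells of the gut. The labels give no age and name no animal, so p-values measure only the spread between these libraries, which may be technical in part.

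DNA replication starts at origins that are licensed in G1, when Cdc6 and Cdt1 load a ring of the proteins Mcm2 to Mcm7 around the DNA. At the start of S phase, Cdc45 and the GINS complex join the ring to form the active helicase, and polymerases held on DNA by the sliding clamp PCNA copy both strands. Many of these genes are switched on together by E2F transcription factors when the retinoblastoma protein is phosphorylated. In the intestine the dividing cells lie in the crypts, where stem cells and their transit-amplifying daughters are, and the differentiated cells have left the cell cycle.

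Promoter windows show the E2F-type letters that some of these genes share. RefSeq windows of build GRCm38.p6, from 250 bases before to 50 bases after an annotated start, were at hand for 23 of the 29 genes. They were searched on both strands for TTTCCCGC, TTTGGCGC, TTTCGCGC and TTTGCCGC, which can overlap one another. At least 1 match lay in the windows of 11 of the 23 genes (47.8%), against 2.60% of the 27025 genes with a window and 4.57% of the 10696 genes with a window that were also tested for expression. The 11 genes were Mcm3, Mcm5, Mcm6, Mcm7, Cdc6, Cdt1, Pola1, Clspn, Uhrf1, Hells and Dtl. The pentamer CCAAT, on either strand, lay in the windows of 16 of the 23 genes (69.6%), against 41.1% of all genes with a window. No window was at hand for Mcm4, Gins2, Rfc2, Exo1, Dscc1 and Ccne2. The 4 windows below come from licensing genes, 3 of them with more than 1 match, and read 5′ to 3′ on the strand of the gene, with the E2F-type letters in capitals. They lie at chr1:20820263-20820562 (Mcm3, minus strand), chr8:75109259-75109558 (Mcm5, plus strand), chr1:128359656-128359955 (Mcm6, minus strand) and chr11:98907901-98908200 (Cdc6, plus strand). The starts used for these windows are not those of the count table. There Cdc6 begins at 98907889, so its whole window lies inside the counted gene. The counted Mcm3 gene reaches only to 20820213, so its window lies wholly outside the gene.
Mcm3: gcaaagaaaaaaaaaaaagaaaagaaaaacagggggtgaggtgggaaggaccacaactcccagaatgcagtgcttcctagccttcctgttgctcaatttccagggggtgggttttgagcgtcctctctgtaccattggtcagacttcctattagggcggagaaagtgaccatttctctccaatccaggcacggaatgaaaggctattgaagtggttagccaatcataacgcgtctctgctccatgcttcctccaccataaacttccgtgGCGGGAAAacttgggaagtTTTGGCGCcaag
Mcm5: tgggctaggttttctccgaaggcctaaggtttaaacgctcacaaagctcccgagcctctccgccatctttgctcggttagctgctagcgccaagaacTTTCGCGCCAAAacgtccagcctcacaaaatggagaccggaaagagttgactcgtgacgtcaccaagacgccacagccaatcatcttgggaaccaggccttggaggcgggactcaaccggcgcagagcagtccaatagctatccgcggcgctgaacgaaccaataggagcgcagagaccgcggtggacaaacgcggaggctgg
Mcm6: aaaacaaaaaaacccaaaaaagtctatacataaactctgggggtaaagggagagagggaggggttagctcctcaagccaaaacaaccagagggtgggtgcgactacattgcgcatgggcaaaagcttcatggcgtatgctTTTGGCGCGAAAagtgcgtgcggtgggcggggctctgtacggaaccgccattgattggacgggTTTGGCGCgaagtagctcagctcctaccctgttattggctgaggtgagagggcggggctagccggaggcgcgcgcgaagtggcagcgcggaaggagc
Cdc6: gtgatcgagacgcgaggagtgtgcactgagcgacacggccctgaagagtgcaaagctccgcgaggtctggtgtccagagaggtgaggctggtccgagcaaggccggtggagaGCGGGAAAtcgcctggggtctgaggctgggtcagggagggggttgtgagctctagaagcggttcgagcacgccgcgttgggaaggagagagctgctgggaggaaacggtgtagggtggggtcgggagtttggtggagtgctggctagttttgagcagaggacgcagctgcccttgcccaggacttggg
In the Mcm5 window a pair of matches on opposite strands share 4 letters and make the run TTTCGCGCCAAA, and the Mcm6 window holds the run TTTGGCGCGAAA with a further match closer to the start. The single Cdc6 match and the first capitals of Mcm3 are the reverse complement of TTTCCCGC. A match describes letters only, and no factor binding was measured in these samples.

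The 14 libraries used held 9508505 to 17296536 counts. The tumor Lrig1-low library numbered S15 held fewer than 1000 counts, none of them on these 29 genes, and was left out. The share of mitochondrial ribosomal RNA was 12.9% to 42.8%, highest in S12. Epcam was at 605 to 1510 CPM (counts scaled to the library size, with edgeR factors) and Pecam1, which encodes CD31, at 1.85 CPM or less, while Ptprc, which encodes CD45, reached 46.1 CPM in S08. Other endothelial markers were less even. With Pecam1 included, 6 of them summed to 2.17 to 192 CPM, highest in S11, where Cdh5 alone was at 155 CPM. In S11 Vwf was at 21.4 CPM and Tek at 14.6 CPM, while Pecam1 was at 1.11 CPM and Kdr and Plvap at 0.222 CPM each. The tissue is called colon here by its label. Of 6 colon markers, Hoxb13 was at 0 in every library and Car1 in all but S07 and S11, and the 6 summed to 12.6 to 44.5 CPM, whereas 6 Paneth cell markers, a cell type of the small intestine, summed to 72.2 to 11880 CPM.

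Lrig1 itself did not split the libraries by the sort label, which touches every comparison below. Values are listed here and throughout in the order S01, S05, S09 and S13 for normal Lrig1-low, S02, S06, S10 and S14 for normal Lrig1-high, S03, S07 and S11 for tumor Lrig1-low, and S04, S08 and S12 for tumor Lrig1-high, Lrig1-low always first. In that order Lrig1 was at 51.4, 45.3, 85.5 and 54.0 CPM, then at 126, 138, 36.4 and 146 CPM, at 53.2, 142 and 43.0 CPM, and at 148, 55.7 and 72.6 CPM. The library labelled normal Lrig1-high S10 was the lowest of all 14, and the library labelled tumor Lrig1-low S07 was among the 5 highest. The library labelled tumor Lrig1-high S08 was close to S03, and S09, labelled normal Lrig1-low, lay between the other 3 of its label and the high libraries. S12, labelled tumor Lrig1-high, also lay between, nearer to S03 than to S04. Group results are given with all 14 libraries and again without S07, S08, S09 and S10. These 4 were picked by Lrig1 together with genes that include the ones described here, and S12 was kept, so the second fit is not independent evidence.

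The replication genes did not divide the libraries by the sort labels either. The level of the 29 genes, taken as the mean of log2(CPM + 1), was 4.23, 4.03, 5.01 and 4.33 in normal Lrig1-low cells and 5.71, 5.80, 3.22 and 5.92 in normal Lrig1-high cells. In tumors it was 4.58, 5.63 and 4.31 in Lrig1-low cells and 5.78, 4.38 and 4.21 in Lrig1-high cells. The 5 libraries with the highest level (S14, S06, S04, S02 and S07) stood at 5.63 or more, the other 9 at 5.01 or less. These were also the 5 libraries with the most Lrig1, at 126 CPM or more against 85.5 CPM or less. S10 was the lowest library in both measures, and S09 the sixth in both. Because the libraries fall into separate clusters, no correlation over them is given.

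**Figure D1:**
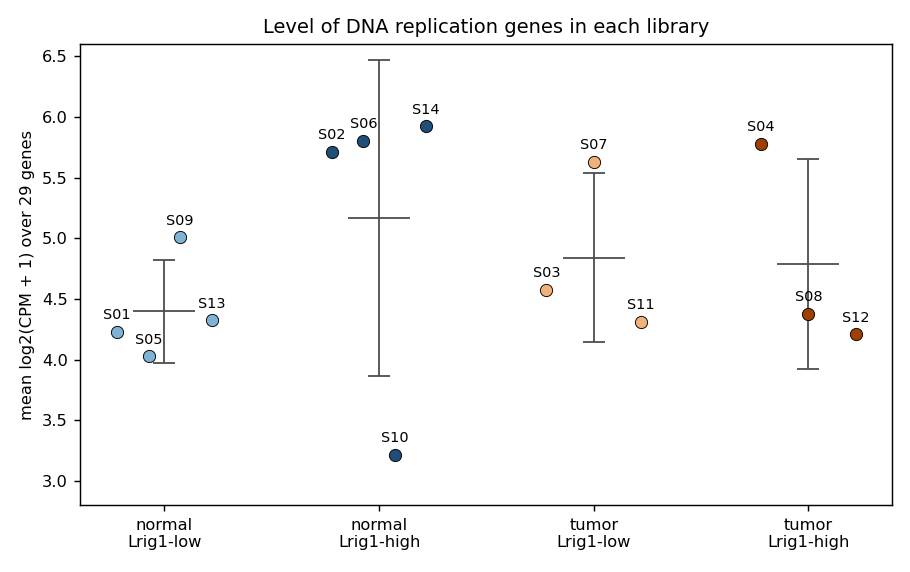
Level of the 29 replication genes, as the mean of log2(CPM + 1) on the vertical axis, in each of the 14 libraries on the horizontal axis, by group; points are libraries and bars the group mean with its SD. S10, labelled normal Lrig1-high, lies at 3.22, below all normal Lrig1-low libraries. S07, labelled tumor Lrig1-low, lies at 5.63, close to the normal Lrig1-high libraries S02, S06 and S14.

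**Figure D2:**
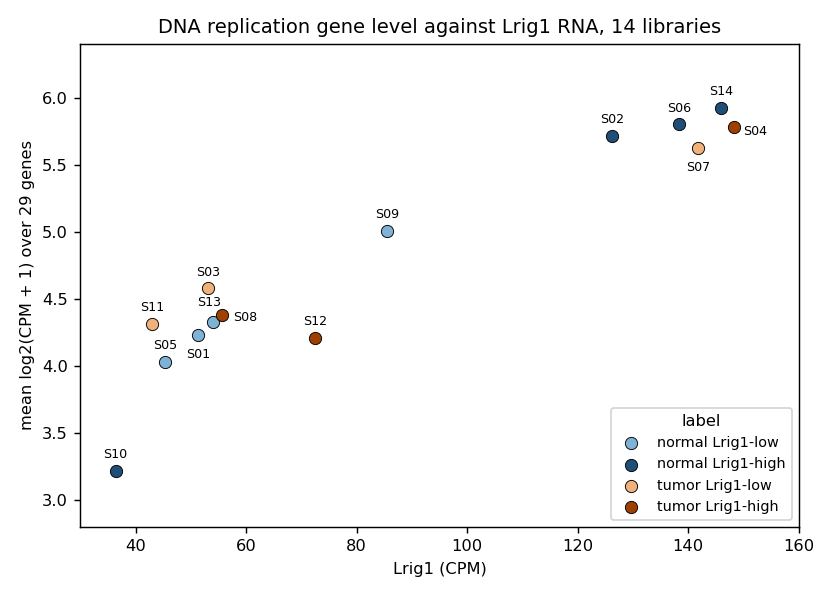
Level of the 29 replication genes (mean of log2(CPM + 1), vertical axis) against Lrig1 (CPM, horizontal axis), with 1 point per library, coloured by its label. The 5 libraries at 126 CPM of Lrig1 or more are the 5 with a level of 5.63 or more, and they carry 3 different labels.

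Mki67 and the sum of the stem cell markers were highest in the same 5 libraries, but not every single stem cell marker was. Lgr5 was highest in S12, at 265 CPM. Axin2, Sox9, Tnfrsf19 and Ephb3 were highest in S11, at 441, 363, 98.2 and 115 CPM. Olfm4, Ascl2, Smoc2, Slc12a2, Cdca7 and Rgmb were each highest in a library of the 5. Mki67, which encodes the proliferation antigen Ki-67, was at 1200.0 to 1767 CPM in the 5 high libraries and at 295 to 991 CPM in the other 9. The 11 stem cell markers summed to 6091 to 8315 CPM in the 5 high libraries, to 4833 CPM in S12, to 2753 CPM in S09 and to 504 CPM in S10, with 557 to 1736 CPM in the rest. The 11 absorptive cell markers summed to 1020 to 2077 CPM in the 5 high libraries and to 9772 CPM in S10, the highest of all, but S11, S12 and S08, at 1795, 2198 and 2514 CPM, lay within or just above the range of the 5. No stem or absorptive marker was at 0 in every library of a group. Their part in the differences below was not tested, and in these bulk samples fewer cells in S phase and less replication RNA per cell cannot be told apart.

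All 29 genes had a higher mean in the Lrig1-high than in the Lrig1-low libraries of normal epithelium, and none passed the test. The median log2 difference over the 29 was 1.11, from 0.57 for Pcna to 1.53 for Gins2, against a median of 0.01 over all 13883 genes tested. In edgeR 0 of the 29 were called, as were 0 of all genes (0.0% higher and 0.0% lower, at an adjusted p under 0.05), with 5 of the 29 and 499 of all genes (3.59%) at an unadjusted p under 0.05. DESeq2 also called 0 of the 29, beside 0.0072% of all genes higher. At an unadjusted p under 0.05 in DESeq2 were 11 of the 29 and 614 of all genes (4.42%). The groups overlapped for every one of the 29, since S10 lay low. Among all genes, 1.63% lay higher without overlap and 1.21% lower.

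The overlap came from S10. For 26 of the 29 genes S10 lay below each of the 4 normal Lrig1-low libraries, an order found for 19.3% of all genes, and the exceptions were Gins2, Pcna and Slbp. The other 3 Lrig1-high libraries, S02, S06 and S14, lay above all 4 Lrig1-low libraries for 29 of the 29, an order found for 14.7% of all genes. Within the Lrig1-low libraries, S09 was the highest for 29 of the 29, against 35.3% of all genes. S10 and S09 stand out by the level of these same genes, so these orders describe the list and test nothing. limma-voom with sample weights, which gave S10 the weight 0.348 and S09 the weight 0.691 against 1.84 to 3.33 for the other normal libraries, called 28 of the 29 higher, all but Ung, beside 14.8% of all genes higher and 15.2% lower. Without S07, S08, S09 and S10, edgeR called 13 of the 29 higher, beside 3.39% of all genes higher and 2.3% lower, with a median of 1.83. The 13 were Mcm5, Mcm6, Mcm7, Cdt1, Pola1, Dscc1, Rrm2, Tyms, Hells, Chaf1b, Slbp, E2f8 and Dtl.

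**Figure D3:**
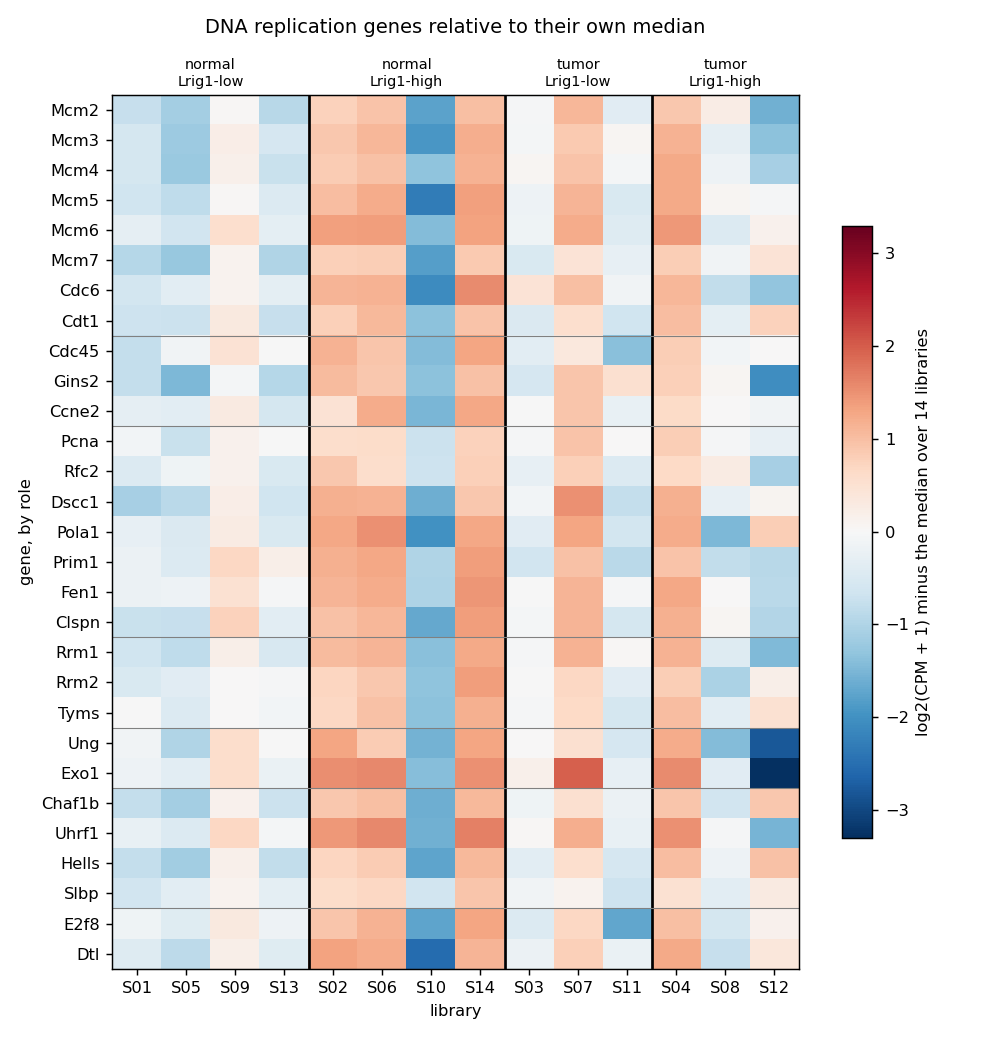
Deviation of each of the 29 genes (vertical axis, grouped by role) from its own median over the 14 libraries (horizontal axis, by group), on the log2(CPM + 1) scale given by the colour bar. Whole columns share a colour, high in S14, S06, S04, S02 and S07 and low in S10, and the column of S12 is mixed.

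Among the licensing genes, the 6 helicase subunits and their loaders Cdc6 and Cdt1 showed this order in nearly the same form. Mcm6 (gene 17219, mm10 chr1:128331591-128359656), a helicase subunit, was at 74.1, 59.1, 136 and 73.5 CPM in normal Lrig1-low and 234, 239, 33.3 and 233 CPM in normal Lrig1-high cells. In tumors it was at 82.8, 216 and 67.7 CPM in Lrig1-low and 250.5, 66.6 and 101 CPM in Lrig1-high cells. S02, S06, S14 and S04 stood highest, S07 close to them, and S10 lowest, so the labelled groups overlapped in both tissues. The group means in normal epithelium were 85.5 ± 34.03 and 185 ± 101 CPM (SD, n = 4 each), a log2 difference of 1.11 ± 0.58 (SE). Mcm7 (gene 17220, mm10 chr5:138164589-138171862), another subunit, was at 33.6, 26.8, 70.9 and 32.2 CPM and 112, 115, 17.8 and 118 CPM in normal Lrig1-low and Lrig1-high cells. Its tumor values were 45.1, 89.5 and 53.3 CPM and 114, 59.3 and 88.2 CPM, with S12 close to S07. Mcm7 differed by 1.15 ± 0.49 between the normal fractions, and by 1.91 ± 0.17 without the 4 libraries, where it passed the edgeR threshold (adjusted p = 0.00612).

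Mcm2, a further subunit, was at 36.4, 27.8, 63.8 and 32.7 CPM and 106, 120.0, 17.7 and 125 CPM in the normal fractions and at 60.7, 133 and 47.7 CPM and 115, 74 and 19.9 CPM in the tumor fractions. S07 was its highest library of all 14, and S10 and S12 its lowest. Mcm3, Mcm4 and Mcm5 ranged over 17.7 to 163, 21.5 to 133 and 8.79 to 123 CPM, each lowest in S10. Cdt1 (gene 67177, mm10 chr8:122568015-122573130), which brings the ring to the origin, was at 18.3, 17.7, 37.6 and 17.1 CPM and 51.7, 64.1, 10.97 and 57.9 CPM in the normal fractions. It was at 21.2, 43.98 and 18.7 CPM and 60.9, 23.5 and 51.4 CPM in the tumor fractions, so that S12 lay with the high libraries. Cdc6, the ATPase that works with Cdt1, was at 4.97, 6.17, 8.78 and 6.30 CPM and 18.7, 19.3, 1.15 and 25.7 CPM in the normal fractions, and at 11.5, 17.2 and 7.41 CPM and 18.5, 4.20 and 2.70 CPM in the tumor fractions. Here S12 lay with S10 at the low end, unlike for Cdt1. The normal fractions differed by 1.03 ± 0.50 for Cdt1 and 1.30 ± 0.75 for Cdc6 on the log2 scale, neither past the edgeR threshold (adjusted p = 1 for both).

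Per kilobase of exon, the helicase subunits were not at equal levels, although the ring holds 1 copy of each. Mcm6 had the highest level per kilobase in 11 of the 14 libraries, for instance 25.5 CPM per kilobase in S01 and 86.4 in S04. Mcm7 was highest in S08 and S12 and Mcm3 in S11. The lowest subunit was Mcm5 or Mcm4 in every library but S12, where it was Mcm2. The highest level was 1.82 (S08) to 4.47 (S10) times the lowest in 13 libraries and 6.24 times in S12. Among all 29, the median level per kilobase over the libraries was highest for Mcm6 (31.7 CPM per kilobase), Slbp (29.2), Mcm7 (27.2) and Pcna (26.6) and lowest for Ccne2 (1.98), Cdc6 (1.72) and Exo1 (1.60). Averaged over the helicase subunits, the level ran from 6.48 CPM per kilobase in S10 to 48.9 in S14.

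**Figure D4:**
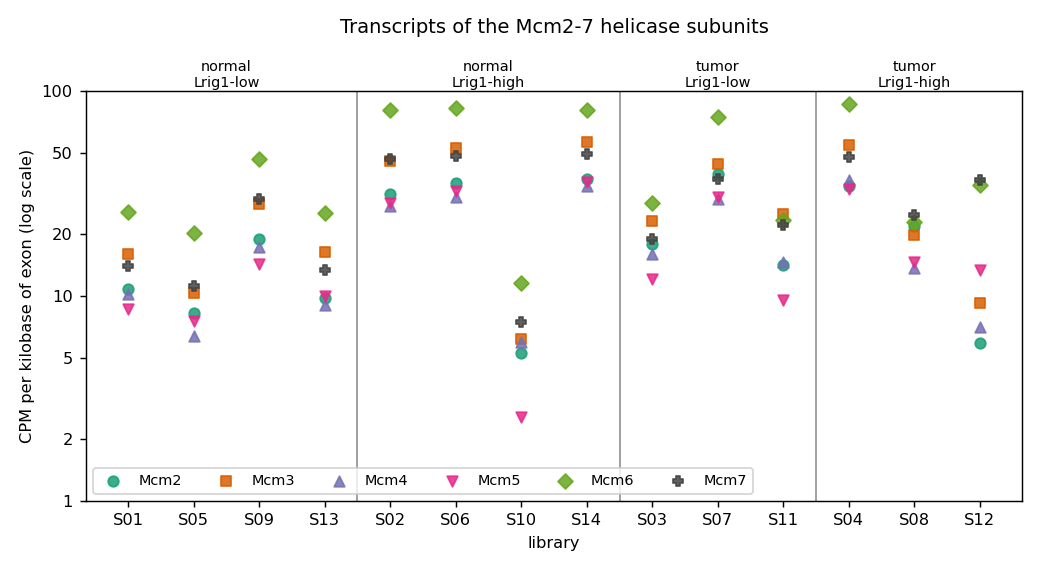
CPM per kilobase of exon (vertical axis, log scale) of the 6 helicase subunits in each of the 14 libraries (horizontal axis, by group), with 1 symbol per subunit. The symbols shift together between libraries, Mcm6 is on top in 11 of 14, and in S12 the subunits are spread over a 6.24-fold range.

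Of the origin firing genes, Gins2 had the largest log2 difference of all 29. Gins2 (gene 272551, mm10 chr8:120581266-120589075), a subunit of the GINS complex, was at 5.05, 2.68, 8.85 and 4.43 CPM and 20.5, 18.1, 3.03 and 19.1 CPM in the normal fractions, a log2 difference of 1.53 ± 0.70. In tumors it was at 6.06, 18.5 and 14 CPM in Lrig1-low and 16.8, 9.95 and 1.51 CPM in Lrig1-high cells. S12, with 14 counts of Gins2, was the lowest library. Cdc45, the remaining component of the active helicase, was at 4.81, 8.23, 13.1 and 8.94 CPM and 21.3, 17.9, 2.73 and 23.9 CPM in the normal fractions and at 6.97, 11.7 and 2.89 CPM and 16.7, 8.49 and 9.19 CPM in the tumor fractions. Its lowest values were in S10 and S11. Ccne2, which encodes cyclin E2, a driver of the G1 to S step, ranged over 1.58 to 16.9 CPM, lowest in S10 and highest in S14.

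At the fork, Pcna (gene 18538, mm10 chr2:132249286-132253180), the sliding clamp, differed least. It was at 31.4, 19.6, 36.98 and 33.4 CPM in normal Lrig1-low and 50.5, 51.9, 20 and 57.5 CPM in normal Lrig1-high cells, with group means of 30.3 ± 7.52 and 44.98 ± 16.9 CPM (SD, n = 4 each) and a log2 difference of 0.57 ± 0.36. In tumors it was at 32.9, 64.8 and 33.8 CPM and 60.01, 32.9 and 27.7 CPM. The highest library was S07, and the lowest S05, with S10 just above it. Pola1 (gene 18968, mm10 chrX:93304766-93632155), the catalytic subunit of the polymerase that starts each new strand, was at 26.7, 23.1, 40.02 and 22.9 CPM and 80.6, 94.9, 7.46 and 80.8 CPM in the normal fractions. Its tumor values were 25, 82.3 and 21.3 CPM and 78.1, 11.04 and 58.2 CPM. S10 and S08, both labelled Lrig1-high, were the lowest, and S12 lay between the high libraries and the rest. The log2 difference of Pola1 in normal epithelium was 1.23 ± 0.70, and 1.83 ± 0.19 without the 4 libraries (edgeR adjusted p = 0.00612).

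For the other fork genes, too, S02, S06 and S14 lay above every normal Lrig1-low library. Prim1, the primase subunit, ranged over 8.43 to 47.8 CPM, and Fen1, the nuclease that trims Okazaki fragments, over 14.7 to 85.8 CPM. Rfc2, a subunit of the clamp loader, ranged over 11.6 to 48.3 CPM with S12 lowest, and Dscc1, of an alternative clamp loader, over 1.09 to 17.02 CPM with S07 highest. Clspn, which encodes claspin, a fork and checkpoint protein, ranged over 9.09 to 83.2 CPM. S10 was lowest for Prim1, Fen1, Dscc1 and Clspn, and S14 highest for Prim1, Fen1 and Clspn.

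Of the nucleotide supply genes, Rrm1 (gene 20133, mm10 chr7:102441695-102469771), the large subunit of ribonucleotide reductase, was at 39.9, 34.8, 72.7 and 43.5 CPM and 132, 139, 23.5 and 152 CPM in the normal fractions and at 61.5, 140.4 and 65.2 CPM and 141, 47.1 and 22.6 CPM in the tumor fractions. S12 was its lowest library and S10 the next. Rrm2, the small subunit whose supply is tied to S phase, was at 11.7, 13.1, 17.4 and 16.8 CPM and 28.8, 32.8, 6.24 and 46.5 CPM in the normal fractions. Its tumor values were 16.97, 28.5 and 12.96 CPM and 31, 7.85 and 19.7 CPM, so S12 lay above S08 for Rrm2 and below it for Rrm1. Tyms, thymidylate synthase, ranged over 7.94 to 49.9 CPM, lowest in S10 and highest in S14. The normal fractions differed by 1.23 ± 0.59 for Rrm1, 0.95 ± 0.52 for Rrm2 and 0.78 ± 0.47 for Tyms.

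The repair enzymes had the widest errors of the 29. Exo1 (gene 26909, mm10 chr1:175880778-175911396), an exonuclease of mismatch repair, was at 7.74, 6.62, 13.6 and 7.39 CPM and 27.2, 28.5, 2.67 and 26.9 CPM in the normal fractions, with a log2 difference of 1.27 ± 1.03. In tumors it was at 9.86, 37.3 and 7.11 CPM and 27.8, 6.48 and 0 CPM. S07 was the highest library of all 14, and S12 had 0 counts, which allows up to 3 if only the sampling of reads is considered. Ung, the glycosylase that removes uracil from DNA, ranged over 0.108 to 17.9 CPM, with 1 count in S12. Its log2 difference between the normal fractions was 0.94 ± 0.97, with the largest unadjusted p of the 29, 0.347 in edgeR (adjusted p = 1).

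Of the chromatin genes, Slbp had the smallest SE of all 29. Slbp (gene 20492, mm10 chr5:33640062-33652306), which binds the stem-loop of histone mRNA, was at 30, 37.1, 51.9 and 37.9 CPM and 72.4, 77.3, 30.3 and 89.6 CPM in the normal fractions and had the smallest unadjusted p of the 29, 0.0292 in edgeR (adjusted p = 1), with a log2 difference of 0.78 ± 0.32. Its tumor values were 43.9, 51.2 and 29.1 CPM and 67.6, 36.8 and 58.3 CPM, with S04 highest and S11 lowest. Hells (gene 15201, mm10 chr19:38930990-38968277), a chromatin remodeler needed for DNA methylation, was at 40.3, 30.8, 78.3 and 39.6 CPM and 114, 125, 20.2 and 147 CPM in the normal fractions. In tumors it was at 54.2, 104 and 47.5 CPM and 143, 62.1 and 138 CPM, with S12 close to S04 and both above every tumor Lrig1-low library. Chaf1b, of the complex that places histones behind the fork, was at 5.79, 4.38, 11.9 and 6.14 CPM and 20.8, 22.3, 2.85 and 23.3 CPM in the normal fractions, a log2 difference of 1.29 ± 0.58. Its tumor values were 9.58, 15.8 and 9.18 CPM and 20.8, 6.48 and 20.4 CPM, and again S12 lay with S04. Uhrf1, which guides maintenance methylation, ranged over 13.6 to 139 CPM, and there S12, at 14.3 CPM, lay with S10.

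Of the regulators, E2f8 (gene 108961, mm10 chr7:48866429-48881041), an E2F family repressor that is itself induced in S phase, was at 41.1, 34.2, 57.2 and 40.4 CPM and 85.9, 102, 12.8 and 113 CPM in the normal fractions, and at 32.95, 73.3 and 13.3 CPM and 91.2, 30.1 and 50.3 CPM in the tumor fractions. S10 and S11 were lowest, with little between them. Dtl (gene 76843, mm10 chr1:191537365-191575534), the substrate receptor of the ubiquitin ligase that degrades Cdt1 in S phase, was at 14.2, 10.2, 22.2 and 14.5 CPM and 50.5, 47.1, 2.49 and 43.3 CPM in the normal fractions. Its value in S10 was the farthest below its own median of all 29 genes in that library, a deviation of -2.55 on the log2(CPM + 1) scale. The tumor values of Dtl were 16.97, 34.3 and 16.5 CPM and 47.5, 11.04 and 25.5 CPM. E2f8 differed by 0.86 ± 0.59 and Dtl by 1.23 ± 0.67 between the normal fractions.

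In tumors the direction of the 29 genes between the Lrig1-high and Lrig1-low libraries depended on the libraries and their weights. The log2 difference was above 0 for 14 of the 29 and below 0 for 15, with a median of 0.00, from -0.66 for Exo1 to 0.74 for Hells, against -0.06 over all genes. In edgeR 0 of the 29 were called, as were 0 of all genes (0.0% higher and 0.0% lower), with 0 of the 29 and 1042 of all genes at an unadjusted p under 0.05. DESeq2 and limma-voom each called 0 of the 29 as well, beside 0.0432% of all genes higher and 0.115% lower in DESeq2. No gene of the 29 was free of overlap between the fractions, against 2.22% of all genes higher and 5.24% lower. S07, labelled Lrig1-low, and S04, labelled Lrig1-high, moved the median most, to 0.59 without S07 (27 of 29 above 0) and -0.53 without S04 (8 above 0). Without S12 it was 0.36 (27 above 0), and limma-voom, which gave S12 the weight 0.0825, put it at 0.57 (27 above 0).

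Most of the 29 genes nonetheless had S04 and S07 as their highest tumor libraries. S04 and S07 lay above the other 4 tumor libraries for 25 of the 29, against 11.6% of all genes, and the exceptions, Cdt1, Hells, Chaf1b and Slbp, were those in which S12 lay above S07. S04 lay above S08 and S12 for 29 of the 29, against 32.7% of all genes, and S07 above S03 and S11 for 29 of the 29, against 34.3%. S04 and S07 stand out by the mean level of these same genes, so the counts describe the list and test nothing. The remaining tumor libraries had no common order. S12 was the lowest of them for Rrm1, at 22.6 CPM, and the highest for Hells, at 138 CPM. Without S07, S08, S09 and S10, which leaves S03 and S11 against S04 and S12, the median was 0.85 and 3 of the 29 were called higher in edgeR, beside 0.322% of all genes higher and 0.0215% lower. They were Hells (1.52 ± 0.21), Cdt1 (1.55 ± 0.22) and Pola1 (1.62 ± 0.23), each at an adjusted p of 0.0464.

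S12 was the library in which the 29 genes scattered most, and so did all genes. The SD of their deviations from their own medians over the libraries was 1.10 on the log2(CPM + 1) scale in S12, against 0.23 to 0.45 in the other 13 libraries. The same SD over all genes was 1.497 in S12, against 0.424 to 0.952 in the other 13. It was larger than that of the 29 genes in every library, so the scatter in S12 was not particular to them. Hells, Cdt1, Chaf1b, Slbp and Mcm7 were near the high libraries there, while Exo1, Ung, Gins2, Rrm1 and Uhrf1 were near or below S10. S12 also had the largest share of mitochondrial ribosomal RNA and the fewest genes with a count, 11995. The part of these in the scatter was not tested.

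**Figure D5:**
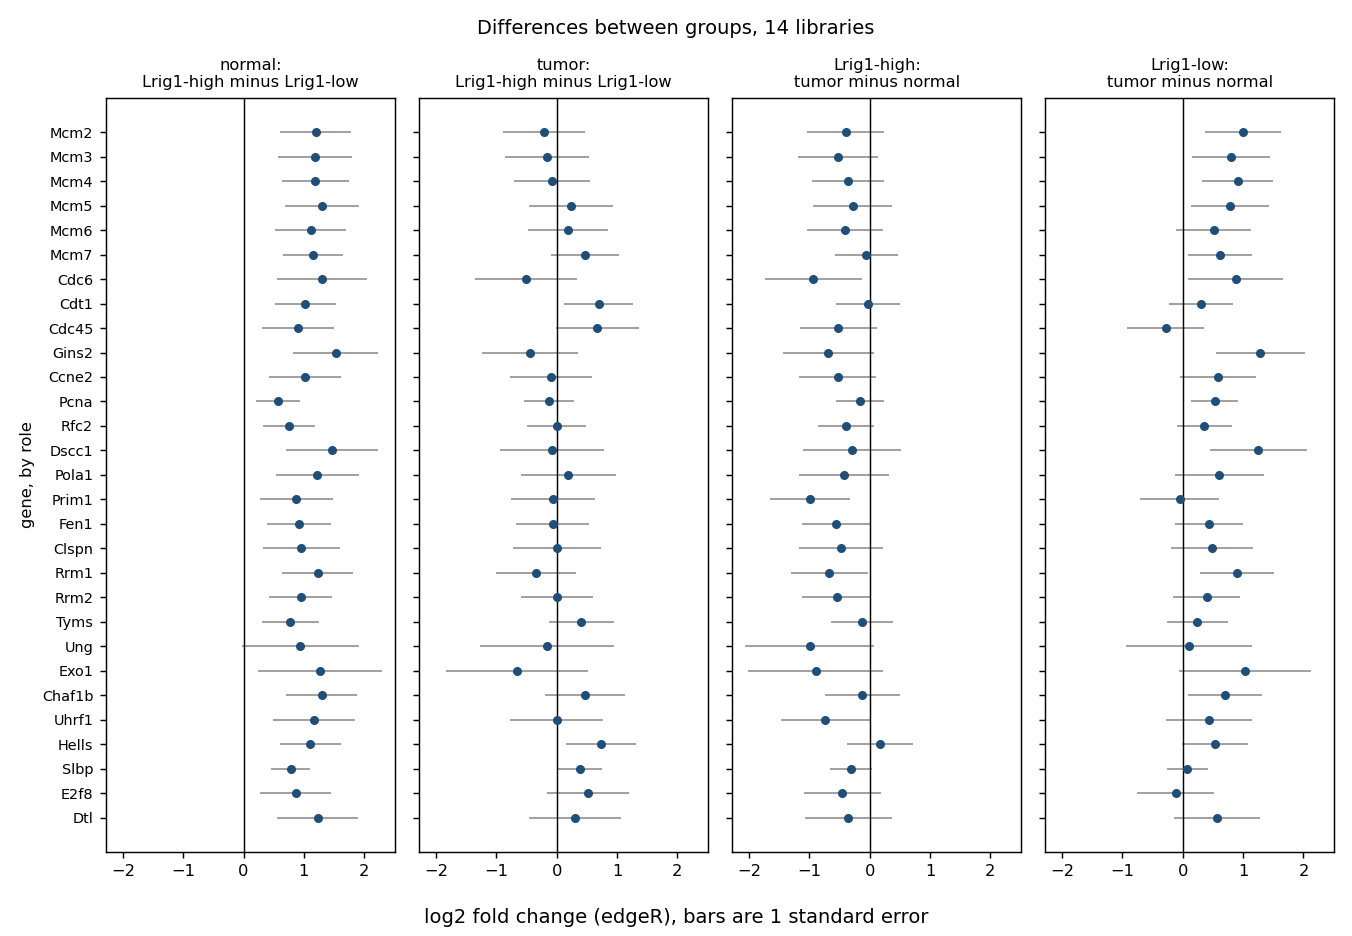
Log2 fold change with its SE (horizontal axis) of each of the 29 genes (vertical axis, by role) in edgeR, for the sort in normal epithelium, the sort in tumors and tumor against normal in each fraction. All 29 lie above 0 for the normal sort, with a median of 1.11, while those of the tumor sort lie around 0, and none passed the threshold in any panel.

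Tumor was compared with normal tissue in each fraction. In the Lrig1-high fraction 28 of the 29 genes had a lower mean in tumors and only Hells a higher one, with a median log2 difference of -0.42, from -0.997 for Ung to 0.17 for Hells, against -0.04 over all genes. In edgeR 0 of the 29 were called, as were 0 of all genes (0.0%), with 0 of the 29 and 1559 of all genes at an unadjusted p under 0.05. DESeq2 and limma-voom called 0 of the 29, beside 0.533% of all genes higher and 0.288% lower in DESeq2. The smallest edgeR adjusted p was 0.574, for Prim1, which differed by -0.99 ± 0.66. No gene of the 29 was free of overlap, against 3.37% of all genes higher and 5.02% lower. The libraries S10 on the normal side and S08 and S12 on the tumor side lay low together. Leaving out 1 library moved the median to as far as -0.97 (S04) and -0.17 (S08). Without the 4 libraries the median was -0.48 and 0 of the 29 were called in edgeR, beside 0.0858% of all genes higher.

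In the Lrig1-low fraction 26 of the 29 had a higher mean in tumors, with a median log2 difference of 0.54, from -0.28 for Cdc45 to 1.29 for Gins2, against 0.02 over all genes. In edgeR 0 of the 29 were called, beside 0.310% of all genes higher and 0.0216% lower, with 0 of the 29 and 1949 of all genes at an unadjusted p under 0.05. DESeq2 and limma-voom called 0 of the 29, beside 3.93% of all genes higher and 1.16% lower in DESeq2, and 7.64% higher and 2.37% lower in limma-voom. E2f8 (-0.12 ± 0.64), Prim1 (-0.05 ± 0.65) and Cdc45 (-0.28 ± 0.64) were the genes with a lower mean in tumors. No gene of the 29 was free of overlap, while 9.95% of all genes were so on the higher side and 8.39% on the lower. The median rested on S07: without it, it was 0.02, and without S09 it was 0.81. Without all 4 libraries it was 0.23, with 0 of the 29 called in edgeR beside 3.09% of all genes higher and 0.143% lower.

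Taken over both fractions, tumor and normal libraries differed by a median of 0.07 over the 29 genes, 19 of them above 0. In edgeR 0 of the 29 were called, beside 1.82% of all genes higher and 0.396% lower, with 0 of the 29 and 2413 of all genes at an unadjusted p under 0.05. DESeq2 and limma-voom called 0 of the 29, beside 5.4% of all genes higher and 2.23% lower in DESeq2 and 3.59% and 0.36% in limma-voom. Without the 4 libraries the median was -0.13 and edgeR called 0 of the 29, beside 4.37% of all genes higher and 0.336% lower. Taken over both tissues, Lrig1-high and Lrig1-low libraries differed by a median of 0.56, all 29 above 0, with 0 called in edgeR among the 29 and 0 among all genes (0.0%). Of the 29, 4 were at an unadjusted p under 0.05 (Slbp, Hells, Cdt1 and Mcm7), as were 687 of all genes (4.95%), and DESeq2 and limma-voom called 0, beside 0.0072% of all genes lower in DESeq2. Without S04 alone that median was 0.23 with 5 of the 29 below 0. With a replicate block on consecutive numbers, the median was 0.37 with 2 below 0. Without the 4 libraries it was 1.33 and edgeR called 15 of the 29 higher, beside 4.76% of all genes higher and 3.61% lower.

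The difference of the sort effects between the tissues, tumor minus normal, was below 0 for 29 of the 29, with a median of -0.95 on the log2 scale against -0.09 over all genes. It was widest for Gins2 (-1.97 ± 1.06) and narrowest for Cdc45 (-0.24 ± 0.90). This interaction passed the edgeR threshold for 0 of the 29 and for 0 of all genes (0.0%), with 0 of the 29 and 999 of all genes at an unadjusted p under 0.05, and DESeq2 and limma-voom called 0 of the 29, beside 0.0072% of all genes higher and 0.0288% lower in DESeq2. Its median was -0.44 without S07, -1.61 without S04 and -0.78 without the 4 libraries. These comparisons share libraries with one another and are no separate evidence.

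The other genes of these pathways, 108 in 7 lists chosen by function, had a median log2 difference of 0.76 in the normal sort, 100 of them above 0. In edgeR 0 of the 108 were called there, with 14 at an unadjusted p under 0.05, beside 3.59% of all genes. DESeq2 called 0, with 23 at an unadjusted p under 0.05, beside 4.42% of all genes. The limma-voom fit with sample weights called 87 higher and 2 lower, beside 14.8% of all genes higher and 15.2% lower. Without the 4 libraries edgeR called 38 higher, beside 3.39% of all genes. In the other comparisons edgeR called 0 of the 108, with 1 to 8 at an unadjusted p under 0.05, beside 4.95% to 17.4% of all genes. Of the other tools, only in tumor against normal Lrig1-low cells were any called, 1 higher by DESeq2, and 1 higher and 1 lower by limma-voom. Without the 4 libraries edgeR called 5 higher in the tumor sort, 44 higher in Lrig1-high against Lrig1-low cells over both tissues and 1 higher in tumor against normal Lrig1-low cells, beside 0.322%, 4.76% and 3.09% of all genes.

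By list, the median log2 difference in the normal sort was 0.39 for 11 licensing genes (10 above 0), 0.75 for 15 firing genes (14 above 0) and 0.79 for 27 fork genes (25 above 0). It was 0.79 for 13 nucleotide genes (all above 0), 1.04 for 16 repair genes (all above 0), 0.87 for 11 chromatin genes (all above 0) and 0.39 for 15 genes of the E2F and retinoblastoma pathway (11 above 0). The most abundant of each list, each with its SE and none past the edgeR threshold, were as follows. Mcmbp, which binds the helicase subunits, differed by 0.27 ± 0.27 and Mcm10, which helps activate the helicase, by 0.95 ± 0.49. Topbp1, an initiation and checkpoint scaffold, differed by 0.90 ± 0.46 and Ccna2, cyclin A2, by 0.68 ± 0.48. At the fork, Lig1, which seals Okazaki fragments, differed by 1.25 ± 0.61 and Chtf8, of an alternative clamp loader, by 0.40 ± 0.24. The purine synthesis enzymes Impdh2 and Gart differed by 0.83 ± 0.42 and 0.77 ± 0.33. Usp1, which removes ubiquitin from PCNA, differed by 0.74 ± 0.33 and Msh6, a mismatch sensor, by 0.97 ± 0.37. The histone chaperone subunits Supt16 and Ssrp1 differed by 0.46 ± 0.29 and 0.64 ± 0.29. Tfdp2, an E2F partner, and E2f4, an E2F that acts mainly as a repressor, were near 0, at 0.11 ± 0.18 and 0.23 ± 0.16.

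In the tumor sort the medians of these lists lay between -0.22 (firing) and 0.28 (licensing). For tumor minus normal they lay between -0.41 (fork) and 0.14 (licensing) in Lrig1-high cells, and between 0.06 (E2F and retinoblastoma) and 0.51 (firing) in Lrig1-low cells. For 25 genes of mitosis, the phase that follows, the normal sort gave a median of 0.88 with all 25 above 0 and 0 called in edgeR. Of these, 1 was at an unadjusted p under 0.05 in edgeR, beside 3.59% of all genes. The limma-voom fit called 23 higher, beside 14.8% of all genes higher and 15.2% lower, and DESeq2 called 0 of the 25. The most abundant of them, Mki67 and Top2a, which encodes the topoisomerase that untangles sister chromatids, differed by 0.78 ± 0.54 and 1.30 ± 0.73 in the normal sort and by 0.08 ± 0.62 and -0.05 ± 0.83 in the tumor sort.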

How the data were processed

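The values analysed were the raw counts of reads per gene that the authors deposited in 1 table for the 15 libraries. Per the file headers, featureCounts 1.5.3 counted reverse-stranded reads over RefSeq exons of mm10, and the submitters' processing notes also name Trimmomatic and HISAT2. The exon length per gene, used for levels per kilobase, is the deposited length column. The header command sets neither fragment counting nor multi-mapping, so each end of a pair counted as a read and genes with near-identical copies can lose reads. Gene symbols came from RefSeq for 25275 identifiers and from GENCODE M21 for 18, and 1886 had none. Groups came from the sample titles, whose running numbers do not pair libraries.

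The tests were run in edgeR 4.0.16 (R 4.3.3) with TMM scaling, filterByExpr (13883 genes tested, all 29 members among them), 1 coefficient for each group and quasi-likelihood F tests. Benjamini-Hochberg adjusted p-values, taken over every gene tested, counted as calls under 0.05. The SE is the absolute log2 fold change over the square root of F. The test was checked on simulated counts that gave every gene the same spread and held no library at odds with its label. The seeded changes were larger than those of the 29 genes in the normal sort with all 14 libraries. The check therefore cannot show whether changes of that size could be called here. Alternatives were DESeq2 1.42.0, DESeq2 size factors, limma-voom (limma 3.58.1) with sample weights, other filters on low counts, the compared groups alone, S15 included, blocks of consecutive numbers, and libraries left out. The members and lists were chosen with earlier results of these data known, so counts over them are descriptions. The named genes are the 29 members, Lrig1, the 2 most abundant genes of each pathway list, since none passed, and Mki67 and Top2a. Marker genes are named to check the sort and the tissue.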

Additional observations from a re-analysis of the deposited data

Results flagged for a closer look

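In 60 sets of 4 normal libraries (each of the 29 genes and their mean level, in each fraction), 13 had 1 library far from the other 3 by Dixon's criterion, which chance alone would give for about 1 in 20. S10 was the low library in 10 of them. The level of the 29 genes in S10 was 3.22 in mean log2(CPM + 1). Among the single genes S10 had 33.3 CPM of Mcm6, 17.8 CPM of Mcm7, 3.03 CPM of Gins2, 23.5 CPM of Rrm1 and 2.49 CPM of Dtl. It also had 7.46 CPM of Pola1, 2.85 CPM of Chaf1b, 2.67 CPM of Exo1 and 8.43 CPM of Prim1. S09 was the high library of the normal Lrig1-low group in the other 3, with 70.9 CPM of Mcm7, 37.6 CPM of Cdt1 and 13.6 CPM of Exo1. The 13 are not independent, since they come from the same libraries.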

How the results depend on the processing

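Under the alternatives other than limma-voom with sample weights and the fit without S07, S08, S09 and S10, edgeR or DESeq2 called 0 of the 29 genes in each of the 7 comparisons. In the normal sort limma-voom called 28 and the fit without the 4 libraries 13. Without the 4 libraries 3 were called in the tumor sort and 15 in Lrig1-high against Lrig1-low over both tissues. That fit has fewer libraries, and those libraries were picked by levels of genes like these; the cause of the limma-voom difference was not tested. No median over the 29 moved by more than the pooled SD of their level between libraries (0.898). That SD is larger than most of these medians, so a median can change sign and stay within it. The criterion therefore cannot show that a median was stable. Leaving out each library in turn, 0 were called, and the median ranged from 0.98 to 1.48 in the normal sort, from -0.53 to 0.59 in the tumor sort, from -0.97 to -0.17 for tumor against normal in Lrig1-high cells and from 0.02 to 0.81 in Lrig1-low cells. It ranged from -0.21 to 0.22 for tumor against normal over both fractions, from 0.23 to 0.81 for Lrig1-high against Lrig1-low over both tissues and from -1.61 to -0.44 for the interaction. With the replicate block (runs of consecutive library numbers, which the labels do not give as pairs), 0 were called and the median of the normal sort was 0.82. Exo1, Ung and Gins2 rested on 0, 1 and 14 counts in S12, although its total of 13242321 counts was above the 9508505 of S08. In S08 these genes had 71, 20 and 109 counts. What lowered them in S12 was not tested.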
